A study of Homo sapiens with 36 samples.

Results

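ABAT encodes GABA transaminase, a mitochondrial enzyme, and is here 1 gene of 63677 in the deposited count tables and of 19180 that passed the filter on low counts. It was chosen from its measured response, for how strongly the difference between IL-1β and control grew from day 6 to day 21 of exposure. Its levels and responses to IL-1β are therefore given as a description, with no test. The series followed A549 cells, an established line of human lung adenocarcinoma epithelium, to ask which transcripts change under chronic inflammation and which stay changed after the stimulus is removed. Cells received IL-1β, an inflammatory cytokine, at 1 ng/ml and were collected on days 6, 15 and 21 of exposure, or exposed for 21 days and collected 6, 15 and 30 days after withdrawal. Untreated A549 cells were collected at each of the 6 time points, which gives 12 groups of 3 replicates and 36 bulk RNA libraries, and no group carried an engineered allele. The labels do not say whether replicates were separate cultures, so p-values measure the spread between these samples, which may be technical.

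GABA transaminase moves the amino group of GABA onto 2-oxoglutarate, which yields glutamate and succinic semialdehyde, and it uses pyridoxal phosphate as cofactor. The same enzyme acts on β-alanine and on β-aminoisobutyrate, products of pyrimidine and valine breakdown, and it also takes part in nucleoside salvage in mitochondria. It is best known from brain, where it ends GABA signalling, and from liver.

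The libraries held 9116032 to 23570026 reads on genes. In 11 of the 36, 6 control and 5 exposed, mitochondrial genes took 11.8 to 24.6% of counts. In the other 25 they took 5.61 to 7.75%. Values without these 11 are given for part of the results, and a result given without such values may also move. The epithelial markers KRT8 and KRT18 and the A549 markers ALDH1A1 and AKR1B10 were abundant in every library, with medians of 2183, 1096, 4585 and 1271 CPM (reads on a gene relative to library size, scaled by the trimmed mean of M values, TMM), whereas EPCAM reached only 0.232 to 1.63 CPM. The 7 A549 markers summed to 9825 to 16043 CPM in control and to 3376 to 11557 CPM in exposed libraries, and their part in the response of ABAT was not tested. The T cell marker CD3E was at 0 in all 36 libraries, and the 6 matched markers of leukocytes, endothelium, neural cells and hepatocytes summed to at most 0.658 CPM.

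In the GRCh37 build used by the counts, ABAT (ENSG00000183044) lies on the forward strand of chromosome 16 from 8768453 to 8878432, and its exons together cover 9713 bases in 24 blocks. RefSeq lists 4 transcription starts for it. The 250 bases before a pair of these starts are shown because the gene can be transcribed from promoters of unlike composition, and the counts, which are summed over the gene, do not separate them. Coordinates are those of the RefSeq table, GRCh38.p14, forward strand, and capitals mark GC boxes (GGGGCGG on either strand).
ABAT start 1, chr16:8674367-8674616: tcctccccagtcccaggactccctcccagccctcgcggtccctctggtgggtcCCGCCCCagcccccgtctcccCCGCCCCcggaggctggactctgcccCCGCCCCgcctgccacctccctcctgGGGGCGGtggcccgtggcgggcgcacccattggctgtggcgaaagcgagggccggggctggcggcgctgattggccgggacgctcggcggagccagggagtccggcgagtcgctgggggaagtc
ABAT start 2, chr16:8712587-8712836: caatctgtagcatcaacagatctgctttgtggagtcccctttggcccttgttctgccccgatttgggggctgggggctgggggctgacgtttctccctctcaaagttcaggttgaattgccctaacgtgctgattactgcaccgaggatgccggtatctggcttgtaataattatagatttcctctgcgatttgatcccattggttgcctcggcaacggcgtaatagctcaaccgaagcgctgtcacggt
The window of start 1 was 77.2% G and C and held 24 CpG pairs and 4 GC boxes, which began at positions -197, -176, -150 and -124 from the start. The window of start 2 was 52.4% G and C, with 12 CpG pairs and no GC box, and that of start 4 was 38.4% G and C with 1 CpG pair. GC boxes were present in 29.3% of the 35116 RefSeq windows of the same 250 bases before a start. None of the 4 ABAT windows held the AP-1 letters TGANTCA, the NF-kB motif (GGG, any 2 bases, then TTTCC) or the E-box CACCTG on either strand, which were present in 6.57%, 1.73% and 17.5% of all windows. These are matches of letters in short windows and say nothing of binding.

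ABAT was low in untreated cells and rose step by step with IL-1β. The 18 control libraries held 5 to 42 ABAT reads each, and their levels ran from 0.605 to 2.35 CPM with a median of 1.30 CPM. After 6 days of IL-1β the replicates held 6.42, 7.31 and 5.26 CPM, against 2.35, 1.91 and 1.12 CPM in the controls of that day. All 3 exposed libraries lay above all 3 controls. After 15 days the exposed replicates held 18.3, 20.6 and 12.7 CPM, and the controls 0.828, 1.25 and 1.73 CPM. By day 21 the exposed replicates reached 30.5, 32.9 and 27.3 CPM, whereas the controls held 1.31, 1.03 and 1.19 CPM. The lowest exposed library of day 21 thus stood above the highest of day 15, and the lowest of day 15 above the highest of day 6. In bulk libraries, a higher level in every cell and a high level in few cells cannot be told apart.

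After withdrawal the level fell sharply and then slowly. The exposed replicates held 5.19, 4.52 and 4.98 CPM 6 days after IL-1β was removed, with 1.16, 0.605 and 1.29 CPM in the controls. At 15 days they held 3.08, 3.20 and 3.54 CPM, with 1.88, 1.43 and 1.52 CPM in the controls. The groups were still apart at both times. At 30 days the exposed libraries held 2.44, 2.67 and 1.96 CPM and the controls 1.56, 0.643 and 2.07 CPM, so that the groups overlapped. Replicate 2 of these controls rested on 5 reads, for which the exact 95% Poisson interval, covering counting error only, is 0.209 to 1.5 CPM.

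**Figure D1:**
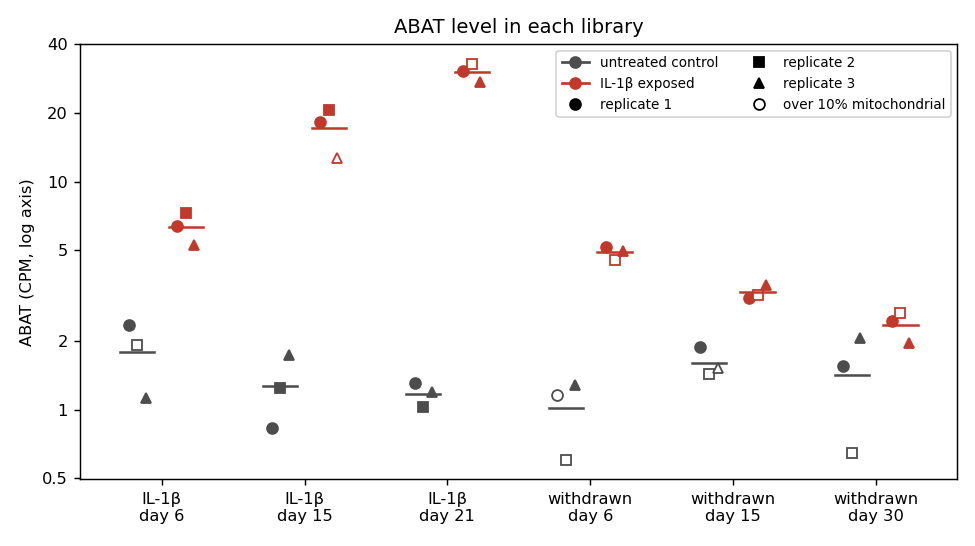
ABAT level (CPM, log axis) in each of the 36 libraries by time point, with untreated controls in grey, IL-1β in red, a marker shape for each replicate number, a bar for each group mean and open symbols for libraries with over 10% mitochondrial counts. Exposed libraries climb to 27.3 to 32.9 CPM at day 21 and fall to 1.96 to 2.67 CPM 30 days after withdrawal, while the controls stay between 0.605 and 2.35 CPM.

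Ordered by mean level, the 6 exposed groups came first. IL-1β day 21 held 30.2 ± 2.80 CPM (SD, n = 3 in each group), day 15 17.2 ± 4.04 CPM and day 6 6.33 ± 1.03 CPM. Withdrawal day 6 followed with 4.90 ± 0.341 CPM, withdrawal day 15 with 3.27 ± 0.239 CPM and withdrawal day 30 with 2.36 ± 0.358 CPM. No library of an exposed group overlapped the next exposed group in this order. From withdrawal day 30 downwards each group overlapped its neighbour: the control means were 1.80 ± 0.624 CPM at day 6, 1.61 ± 0.240 and 1.42 ± 0.721 CPM at withdrawal days 15 and 30, 1.27 ± 0.452 CPM at day 15, 1.18 ± 0.143 CPM at day 21 and 1.02 ± 0.363 CPM at withdrawal day 6. The step from day 6 to day 15 of exposure was 2.72-fold and that from day 15 to day 21 was 1.76-fold, whereas the level at withdrawal day 6 was 0.162 of that at day 21.

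Set against the controls of the same time, the fitted log2 difference of ABAT was 1.82 (SE 0.29) at day 6, a 3.52-fold higher level. It was 3.75 (SE 0.30), or 13.4-fold, at day 15 and 4.67 (SE 0.31), or 25.5-fold, at day 21. All 3 same-numbered library pairs were higher at each of these times, with ratios of 2.73, 3.82 and 4.69 at day 6, of 22.1, 16.5 and 7.35 at day 15, and of 23.3, 32.0 and 22.8 at day 21. The smallest ratio at day 15 belonged to replicate 3, whose exposed library was among those with a high mitochondrial share. Without the 11 such libraries the log2 difference was 3.91 at day 15 and 4.62 at day 21.

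The response shrank to a log2 difference of 2.24 (SE 0.31), or 4.71-fold, at withdrawal day 6 and to 1.01 (SE 0.30), or 2.01-fold, at withdrawal day 15. All 3 pairs were higher at both times. Without the 11 libraries of high mitochondrial share these differences were 1.99 and 0.83, with a single control library left at each time. At withdrawal day 30 the log2 difference was 0.64 (SE 0.30), with 2 of 3 pairs higher and replicate 3 at a log2 ratio of -0.07. That last value rested on single libraries: it was 0.26 without replicate 2, 1.08 without replicate 3 and 0.27 with the 11 mitochondria-rich libraries left out. Of the day 21 log2 difference, 47.9% was present at withdrawal day 6, 21.6% at day 15 and 13.6% at day 30. The share at day 30 was 5.75% without the mitochondria-rich libraries, 5.83% without replicate 2 and 22.8% without replicate 3. Of the day 21 excess in CPM over the controls, 13.4%, 5.72% and 3.22% were present at these times.

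The growth of the response from day 6 to day 21, the contrast by which ABAT was chosen, was 2.85 (SE 0.41) on the log2 scale, or 7.23-fold, and the same-numbered libraries gave 3.09, 3.07 and 2.29. The median growth over all 19180 tested genes was close to 0 (-0.00027), and 78 genes exceeded 2. By size ABAT was 40th, since 39 genes had a larger fitted growth. Their standard errors began at 0.89, and 14 of them stayed under 1 CPM in every group. In 34 of the 39 the fitted level at day 6 was lower than control, a sign that was not tested. The genes just before it were CKS1BP7, RNA5S13 and SEMA4A, with growths of 2.99 (SE 2.00), 2.94 (SE 2.81) and 2.86 (SE 1.22), and those just after were TPT1P15 at 2.72 (SE 2.24), SHROOM4 at 2.67 (SE 2.42) and BTBD19 at 2.67 (SE 2.04). All 6 were lower at day 6. Among the 9122 genes with a fitted level higher than control at day 6, ABAT was 6th by size. These ranks rest on the contrast by which ABAT was chosen and are a description only. From day 21 to withdrawal day 30 the log2 difference of ABAT decreased by 4.03 (SE 0.42). Without the mitochondria-rich libraries this change was -4.36.

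The exposure itself was checked on 10 IL-1 target genes, of which 9 could be matched, and a call here means an adjusted p under 0.05 (edgeR's quasi-likelihood test, Benjamini-Hochberg over all tested genes) and over 2-fold. All 9 were called higher at days 6, 15 and 21, when 1.52%, 1.94% and 2.19% of all tested genes were called higher. CXCL8, a neutrophil chemokine, held 149, 181 and 139.9 CPM at day 6 against 1.37, 0.87 and 1.12 CPM in controls, a log2 difference of 7.10 (SE 0.45, adjusted p = 1.1e-11). The median log2 difference of these genes was 4.05, 3.84 and 3.77 on the 3 days of exposure, whereas that of ABAT climbed from 1.82 to 4.67. Their growth from day 6 to day 21 ran from -0.84 to -0.06. By edgeR or DESeq2, 0 of 9 were called for it. Of all tested genes, 0.0104% were called for it by edgeR, so a count of 0 is near the background. That share is 2 genes, with ABAT among them. ABAT was chosen for this growth, so its contrast with these genes is a description. After withdrawal 3, 1 and 2 of the 9 were called higher at days 6, 15 and 30, beside 1.08%, 0.594% and 0.433% of all tested genes. IL6 remained called at all 3 times, with a log2 difference of 2.74 (SE 0.56, adjusted p = 0.0076) at withdrawal day 30.

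**Figure D2:**
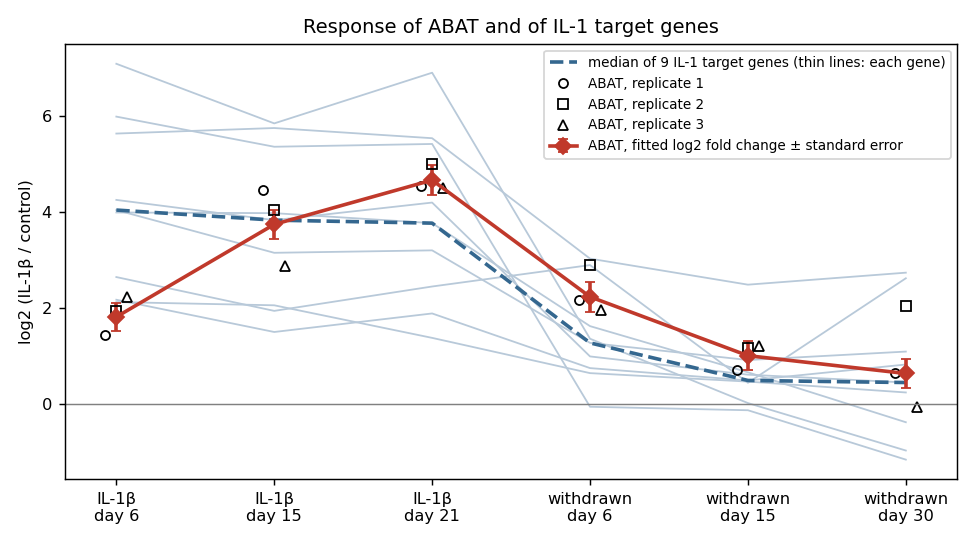
Log2 ratio of IL-1β to control at the 6 time points for ABAT (red, fitted value ± standard error, with open symbols for the 3 same-numbered library pairs) and for 9 IL-1 target genes (thin lines, with their median dashed). ABAT climbs from 1.82 to 4.67 during exposure while the median of the target genes stays between 3.77 and 4.05.

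Genes with a role beside ABAT were taken as 7 lists of 79 genes, of which 53 had enough reads to test. Their called shares are set beside those of all tested genes and nothing particular to the lists is read from them. At day 6, 0 of 53 were called by edgeR or DESeq2, beside 2.77% of all tested genes called. At an unadjusted p under 0.05 there were 10. That is a looser rule, for which no share over all tested genes was taken, so such counts are not comparable with the called shares. At day 15, 1 was called lower, beside 2.3% of all tested genes called lower and 4.24% called in either direction. At day 21, 1 was called higher and 1 lower, beside 2.19% and 2.06% of all tested genes, or 4.26% in either direction. After withdrawal 1 was called higher at day 6, beside 1.08% of all tested genes called higher and 1.8% called in either direction. At withdrawal day 15, 1 was called higher, beside 0.594% and 0.954%. At withdrawal day 30, 0 were called by edgeR or DESeq2, beside 0.897% called in either direction. By the looser rule there were 2 of 53 at that time. The counts at withdrawal days 6 and 15 were 0 without replicate 1 and in separate fits of these times, and that at day 15 also without replicate 2 and with the mitochondria-rich libraries left out. The median log2 difference of the 53 genes at day 21 was -0.03, and that of all tested genes was -0.01. None of the 53 was called by edgeR or DESeq2 for growth from day 6 to day 21, beside 0.0104% of all tested genes called. None was called by either tool for the change from day 21 to withdrawal day 30, beside 0.626%. At an unadjusted p under 0.05, 1 of 53 passed for the growth and 6 of 53 for the later change.

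The enzyme that makes GABA, glutamate decarboxylase 1 (GAD1), was called higher at day 21. Its replicates held 2.06, 2.10 and 1.89 CPM after 21 days of IL-1β and 0.399, 0.422 and 0.637 CPM in controls. The groups did not overlap, and the log2 difference was 2.00 (SE 0.31, adjusted p = 6.1e-05). They were also apart at days 6 and 15 and at withdrawal days 6 and 15, and overlapped at withdrawal day 30. At the other times its log2 difference was 0.96 at day 6, 0.95 at day 15, 0.66, 0.92 and 0.62 at withdrawal days 6, 15 and 30, and none of these was called (adjusted p = 0.15, 0.084, 0.71, 0.51 and 0.75). Its growth from day 6 to day 21, 1.04 (SE 0.48), did not pass the test (adjusted p = 1.0). Without the mitochondria-rich libraries the log2 difference of GAD1 was 0.26 at withdrawal day 30. It was 0.40 at withdrawal day 6, with a single control library left. The level of GAD1 stayed low, with at most 46 reads in a library, and its paralogue GAD2 had too few reads to test.

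Succinic semialdehyde dehydrogenase (ALDH5A1), which takes up the product of ABAT, was lower under IL-1β by less than 2-fold. At day 21 the exposed libraries held 13.6 ± 0.235 CPM and the controls 19.0 ± 0.911 CPM (SD, n = 3). The groups did not overlap at days 6, 15 or 21, with log2 differences of -0.54, -0.56 and -0.48 (SE 0.14 each, adjusted p = 0.021, 0.011 and 0.033). They overlapped at all 3 times after withdrawal. Per kilobase of exon the order of the pair differed between the groups of day 21: ABAT held 0.121 and ALDH5A1 2.51 CPM per kilobase in controls, and 3.11 and 1.80 after IL-1β, while GAD1 held 0.059 and 0.245.

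Glutamate dehydrogenases GLUD1 and GLUD2, near-identical copies whose reads can be split between them, were not called at any time, and glutamine synthetase (GLUL) had too few reads to test, with at most 3 in a library. The annotation release used for counting is not given in the sources used here, so this count is not read as absent expression.

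Pyridoxal kinase (PDXK), which phosphorylates vitamin B6 on the way to the cofactor of ABAT, moved in the other direction. It held 133.6, 94.6 and 170.4 CPM after 21 days of IL-1β and 321, 306 and 347 CPM in controls. The groups did not overlap, and the log2 difference was -1.29 (SE 0.38, adjusted p = 0.04). Day 15 gave -1.70 (SE 0.39, adjusted p = 0.005). Both calls were lost without replicate 1 or without replicate 3, and that of day 21 also when libraries were scaled by total counts only. The lowest exposed library of each day, replicate 2 at day 21 and replicate 3 at day 15 (63.5 CPM), had a high mitochondrial share. Control libraries with such a share held 140 to 248 CPM of PDXK, and the other controls 306 to 417 CPM. Without the mitochondria-rich libraries the log2 differences were -1.08 at day 21 and -1.41 at day 15. The part of this share in the difference was not tested. PDXP, a phosphatase of the same cofactor, was not called at any time.

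Breakdown of β-alanine, pyrimidines, valine and propionate, the pathways of the other ABAT substrates, gave 0 calls among 19 tested genes at every time by edgeR, and 1 by DESeq2 at day 15. At an unadjusted p under 0.05 there were 4, 5, 3, 2, 1 and 0 genes at the 6 times in order. BCAT1, the cytosolic transaminase of branched-chain amino acids, passed the adjusted p but not 2-fold, with log2 differences of 0.72, 0.97 and 0.83 at days 6, 15 and 21 (adjusted p = 0.04, 0.0024 and 0.0089). Its day 15 difference ran from 0.60 with the mitochondria-rich libraries left out to 1.09 without replicate 2, and it also passed 2-fold without replicate 1 (1.06), with DESeq2 size factors and by DESeq2's own test (1.00 each). Among 12 genes of mitochondrial nucleoside salvage and DNA synthesis, 0 were called at any time by either tool, with at most 1 at an unadjusted p under 0.05, and NME4, a mitochondrial nucleoside diphosphate kinase, had the largest difference at day 21 with -0.35. Between 0.897% and 4.26% of all tested genes were called at these times, so 0 calls in either list is near the background.

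Of 6 GABA transporters 2 could be tested and of 21 receptor subunits 7, and 0 were called at any time by edgeR or DESeq2. The transporters had 0 genes at an unadjusted p under 0.05 at all 6 times, and SLC6A6, a taurine transporter that also carries β-alanine, differed by 0.14 at day 21. The receptors had 2, 4, 2, 1, 0 and 2 such genes. GABRP, the π subunit found in epithelia, had a log2 difference of 0.68 at day 21 (adjusted p = 0.14) and of 0.87 at day 15 (adjusted p = 0.04). Among the enzymes related to ABAT, the class III aminotransferases, 2 of 4 could be tested. They gave 0 calls at any time by either tool and 1 gene at an unadjusted p under 0.05, at day 6, and PHYKPL, a lyase of phosphohydroxylysine, differed by -0.38 at day 21. With 0.897% to 4.26% of all tested genes called at these times, 0 calls in each of these short lists is near the background.

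**Figure D3:**
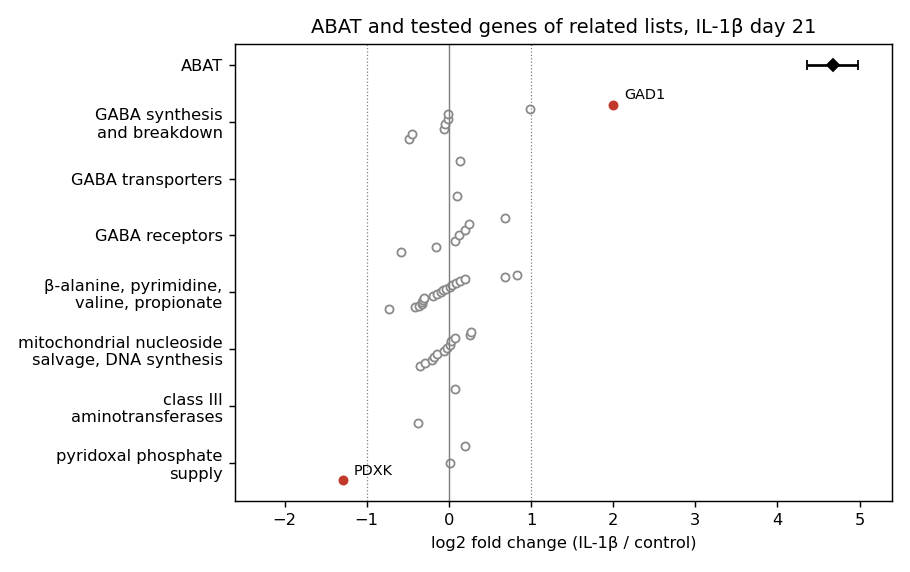
Log2 difference between IL-1β and control at day 21 for ABAT (black, ± standard error) and for the 53 tested genes of the 7 lists (1 point a gene, filled red where called, with dotted lines at 2-fold). ABAT lies at 4.67, GAD1 at 2.00 and PDXK at -1.29, and the other points are uncalled.

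Of the 10 nearest tested genes on chromosome 16, 5 on each side of ABAT, 0 were called at any of the 6 times by edgeR or DESeq2, and 0 had an unadjusted p under 0.05. Between 0.897% and 4.26% of all tested genes were called at these times, so a count of 0 among 10 is near the background. Only some of them are close: 4 of the 5 before ABAT lie 3447498 to 3684311 bases away, whereas the 5 after it lie within 283979 bases. METTL22, a methyltransferase gene that ends 24942 bases before ABAT, differed by 0.17 at day 21 (SE 0.16, adjusted p = 0.89). TMEM186, on the opposite strand and overlapping the end of ABAT, shares 152 exonic bases with it, 1.56% of the ABAT exons. Whether the counting used strand is not given in the sources used here, so reads from that stretch cannot be assigned to either gene. TMEM186 held 23 to 191 reads a library and differed by -0.26 at day 21 (SE 0.32, adjusted p = 0.98).

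The genes whose log2 levels followed ABAT most closely over the 36 libraries, by Pearson's r, were LAMB3 with 0.91, PAX8, SLCO2B1, JCAD, ADAM19, IL1B, SERPINA1, CD82, IL1A and MIR3142HG with 0.90. These points share 12 groups, and any gene with a response to IL-1β shares that design, so r is a description of likeness here. The list depended on the measure. Of the 10, 1 was among the first 10 by Spearman's rho, 4 by Pearson's r over the 12 group means, 2 over the 18 differences between same-numbered libraries, and 4 when the mitochondria-rich libraries were left out, although all 10 remained within the first 100 over the group means.

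LAMB3, a chain of the basement membrane protein laminin-332, was already near its later level at day 6. It held 180.1, 148 and 97.4 CPM at day 6 and 147, 108 and 185 CPM at day 21 of IL-1β, with day 21 controls at 23.9, 21.1 and 21.7 CPM. IL1A, which encodes the cytokine IL-1α, came closest to the course of ABAT during exposure, with log2 differences of 2.21, 4.26 and 5.35 at days 6, 15 and 21. Its levels were low, at 3.37, 2.47 and 3.28 CPM at day 21, and a control library of that day held 0. The opposite course was that of INHBB, which encodes the βB subunit of activins and inhibins (r = -0.94), followed by BCL11B, MAP3K21, GFRA1 and AKR1B10 (-0.92). INHBB held 19.2, 20.4 and 16.3 CPM at day 6 of IL-1β and 3.80, 3.22 and 4.97 CPM at day 21, against 163 to 168 CPM in the controls of day 6 and 116 to 148 CPM in those of day 21. At withdrawal day 30 its exposed libraries held 41.4, 41.9 and 68.6 CPM and still lay below all 3 controls, whereas the ABAT groups overlapped at that time.

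**Figure D4:**
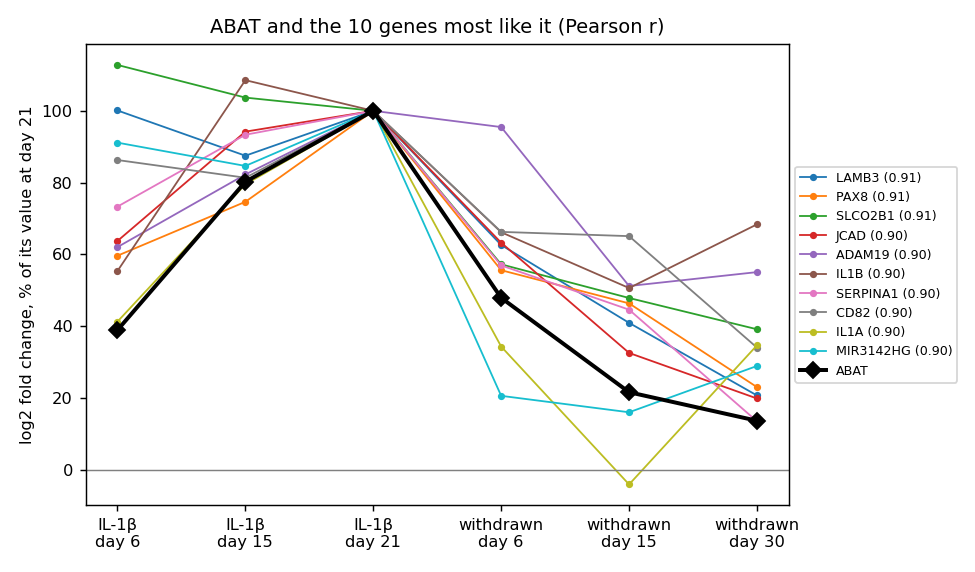
Log2 difference between IL-1β and control at each time, as percent of the same gene's value at day 21, for ABAT (black) and the 10 genes with the highest Pearson r to it over 36 libraries (r in brackets). ABAT stands at 38.9% at day 6, 80.2% at day 15 and 13.6% at withdrawal day 30, and LAMB3 is already near 100% at day 6.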

How the data were processed

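RNA of 36 A549 libraries was sequenced. Per the submitters' processing notes and the study's methods, the authors used bcl2fastq 2.17, aligned reads to GRCh37 with TopHat2 2.0.14 and Bowtie2 2.2.5 and counted them with HTSeq 0.6.1. The deposited values are raw counts per Ensembl gene in each library. The annotation release and the strand setting are not given in the sources used here. HTSeq's summary lines were left out (no feature 8.48 to 18.6% and ambiguous 2.62 to 4.18% of reads).

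Counts were scaled by TMM, filtered with filterByExpr to 19180 genes and fitted jointly with 12 group terms and 24 residual degrees of freedom in edgeR 4.0.16 (R 4.3.3). A call was a Benjamini-Hochberg adjusted p under 0.05 over all tested genes and over 2-fold. The joint fit was tested on simulated data. Log2 CPM for correlations used a prior count of 2. Gene names and exons came from GENCODE v44lift37, which matched 55665 of 63677 identifiers, and promoter windows from RefSeq. ABAT and the gene lists were chosen with earlier results of these data known. Named were ABAT, the 10 most like and 5 most opposite genes, 3 genes on each side in the growth rank, GAD1, ALDH5A1, CXCL8, list members called at any time or otherwise the largest at day 21, and the nearest neighbours. IL6, which was called at all 6 times, and the uncalled or untested genes outside this rule were named after their values were seen. Some list members counted in the totals are not reported here by name. Alternatives were other scalings, no filter, DESeq2 1.42.0, separate fits, a replicate block, each replicate number left out, the libraries with over 10% mitochondrial counts left out, and adjusted p alone. Intervals cover counting error only.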

Additional observations from a re-analysis of the deposited data

How the results depend on the processing

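The rise of ABAT kept its direction at all 6 times under every alternative fit, with log2 differences of 4.53 to 4.75 at day 21. Among the 53 tested list genes, calls were few, so single genes moved the counts. With adjusted p alone, 1 was higher and 2 lower at day 6, 3 higher and 2 lower at day 15, and 3 higher and 3 lower at day 21. Without the libraries of high mitochondrial share, 1 was higher and 1 lower at day 6, 2 were higher at day 21 and 0 higher at withdrawal day 15; withdrawal days 6 and 15 then rest on 1 control library each. In separate fits, 1 was lower at day 6 and 0 were higher at withdrawal days 6 and 15. DESeq2's test and its size factors each gave 1 higher at day 15, and total counts only gave 0 lower at day 21. Leaving out each replicate number gave 0 to 1 lower at day 6, 0 to 2 higher and 0 to 1 lower at day 15, 1 to 2 higher and 0 to 1 lower at day 21, and 0 to 1 higher at withdrawal days 6 and 15. The causes were not tested. Of the 10 genes most like ABAT, 1, 4, 2 and 4 stayed in the first 10 by Spearman's rho, over group means, over differences and without libraries of high mitochondrial share. Replicate numbers were not taken to pair samples: same-numbered libraries deviated together with r over 0.1 in 14 of 18 pairs (-0.34 to 0.72). With a replicate block the log2 difference of ABAT was 4.67 at day 21 and 0.62 at withdrawal day 30, and no count of calls changed. Controls held 5 to 42 ABAT reads a library, which limits the precision of every fold change.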
